A study of Homo sapiens with 3 samples.

Results

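The ionotropic and metabotropic glutamate receptor genes and the GABA-A receptor genes were examined in maps of histone H2A acetylated at lysine 130, made from UMUC3 cells, an established human bladder carcinoma line. Members were protein-coding genes on hg38 whose symbol is GRIA, GRID, GRIK, GRIN or GRM followed by a digit, with a letter allowed after it for GRIN, or GABR followed by A, B, D, E, G, P, Q or R. This gave 45 genes of 19970 protein-coding genes on chromosomes 1 to 22 and X. They were chosen by name and not by any measured value, as genes that urothelial cells would not be expected to use. Gene expression was not measured in this series.

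The libraries were chromatin immunoprecipitation and sequencing (ChIP-seq) libraries. The smoke library came from cells given cigarette smoke media at 10% for 3 days, and the air library from cells exposed to air. An input library was the third sample; no file of it was used here. All cells were grown in EMEM with 10% fetal bovine serum. The same treatment sentence stands in the labels of all 3 samples, so the groups rest on the treatment label. Immunoprecipitation used 2 ug of antibody for 3 hours. With 1 library per group and 1 cell line, differences between smoke and air could not be checked against replicates, and p-values are not given. The smoke list held 23975 peaks and the air list 27010, so smoke peaks were 47.02% of all listed peaks; read depth is unknown. The lists also hold weak peaks, with the authors' adjusted p (q) up to 0.326 over these genes in smoke and 0.389 in air.

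Glutamate is the main excitatory transmitter of the brain and GABA the main inhibitory one. AMPA, kainate and NMDA receptors are cation channels that open when glutamate binds. The metabotropic receptors instead signal through G proteins. GABA-A receptors are chloride channels assembled from alpha, beta, gamma and rarer subunits. Many of these genes are long, and several GABA-A genes lie beside each other in clusters. Lysine 130 lies near the C-terminal end of H2A.

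No peak of either library lay in a promoter window of these genes. RefSeq sequence (GRCh38.p14) was given for 49 start-site windows, each running from 250 bases before to 50 after a start, of 32 of the 45 genes. All 49 were free of smoke and air peaks, which allows a share of up to 6.12% of windows. Over all 22131 windows of protein-coding genes, 0.280% overlapped a smoke peak and 0.343% an air peak. Read against those shares, 0 of 49 is not a result about the receptor genes. Only 4 starts had a peak within 2 kb, and their windows are printed because they are the places where a listed peak came closest to a start. Each runs 5′ to 3′ on the gene's strand, with every CG dinucleotide in capitals.
GRIK3, minus strand, chr1:37034466-37034765: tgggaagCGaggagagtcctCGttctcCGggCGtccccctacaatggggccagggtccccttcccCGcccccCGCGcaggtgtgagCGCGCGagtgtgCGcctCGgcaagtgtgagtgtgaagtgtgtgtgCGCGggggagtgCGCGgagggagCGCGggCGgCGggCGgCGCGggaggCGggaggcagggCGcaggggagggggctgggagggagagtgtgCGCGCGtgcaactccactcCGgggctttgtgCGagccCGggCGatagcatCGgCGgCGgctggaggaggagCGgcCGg
GABRR3, minus strand, chr3:98035266-98035565: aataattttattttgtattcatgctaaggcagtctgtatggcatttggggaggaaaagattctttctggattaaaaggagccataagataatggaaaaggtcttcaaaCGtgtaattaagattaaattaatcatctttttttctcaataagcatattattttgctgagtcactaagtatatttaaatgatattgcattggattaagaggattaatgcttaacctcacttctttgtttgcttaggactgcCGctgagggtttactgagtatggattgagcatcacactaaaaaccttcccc
GABRA6, plus strand, chr5:161685471-161685770: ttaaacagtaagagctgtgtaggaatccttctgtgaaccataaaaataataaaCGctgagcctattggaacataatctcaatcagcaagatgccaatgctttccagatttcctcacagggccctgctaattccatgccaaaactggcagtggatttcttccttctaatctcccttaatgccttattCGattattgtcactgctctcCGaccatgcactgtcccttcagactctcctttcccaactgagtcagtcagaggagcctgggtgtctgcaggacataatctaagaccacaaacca
GRM2, plus strand, chr3:51706818-51707117: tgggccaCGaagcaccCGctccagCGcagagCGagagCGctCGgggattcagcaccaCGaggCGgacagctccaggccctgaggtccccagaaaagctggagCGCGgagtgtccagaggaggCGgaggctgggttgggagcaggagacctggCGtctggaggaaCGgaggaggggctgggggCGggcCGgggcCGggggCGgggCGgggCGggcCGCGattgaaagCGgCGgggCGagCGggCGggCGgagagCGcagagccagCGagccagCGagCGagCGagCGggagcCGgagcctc

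The 4 windows differed widely in composition. Those of GRIK3, a kainate receptor subunit gene, and GRM2, a metabotropic receptor gene, held 37 and 34 CG dinucleotides. Those of GABRR3, encoding the rho3 subunit, and GABRA6, encoding the alpha6 subunit, held 2 and 3. CG reads the same on both strands and was counted once per position. At least 1 CG stood in 98.1% of all windows and in all 49 receptor windows. The median was 13 per receptor window and 21 over all windows. A count of CG letters describes the sequence and says nothing of methylation, which was not measured.

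The closest peak to a start was a smoke peak upstream of GRIK3. It lay at chr1:37035114-37035584, 0.599 kb before the start, at a deposited fold of 3.76 (−log10 q 1.34). The fold is the authors' enrichment value of the peak, and folds and q are theirs throughout. The smoke peaks near GABRR3 and GABRA6 lay inside the genes, 1.28 kb and 1.505 kb past the start, with folds of 3.76 and 3.93. The peak near GRM2 was an air peak 1.68 kb before its start (fold 2.82), outside the 1 kb margin used for counts below. Within 2 kb of a start, 8.16% of receptor starts and 5.25% of all starts had a peak of either library; within 10 kb the shares were 22.4% and 22.3%.

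Across the whole genes the lists held 103 smoke and 117 air peaks, counting a peak that overlapped a gene or lay within 1 kb of it. The 45 windows covered 12.2 Mb, 0.401% of the chromosomes, and held 0.430% of the smoke list and 0.433% of the air list. At least 1 smoke peak was present at 28 genes (62.2%), against 24.2% of all protein-coding genes. At least 1 air peak was present at 27 (60.0%), against 25.9%. Both libraries had peaks at 25 genes (55.6%, against 14.7%), and neither had one at 15 (33.3%, against 64.5%). Smoke alone had peaks at 3 genes (6.67%, against 9.58%), which were GABRR1, GRIK3 and GRIN2D. Air alone had a peak at 2 genes (4.44%, against 11.2%), GABRA2 and GABRA5. Receptor genes are long, with a median of 146.8 kb against 24.2 kb, and longer genes held more peaks. These shares of genes are therefore set beside genes of the same length class below.

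**Figure D1:**
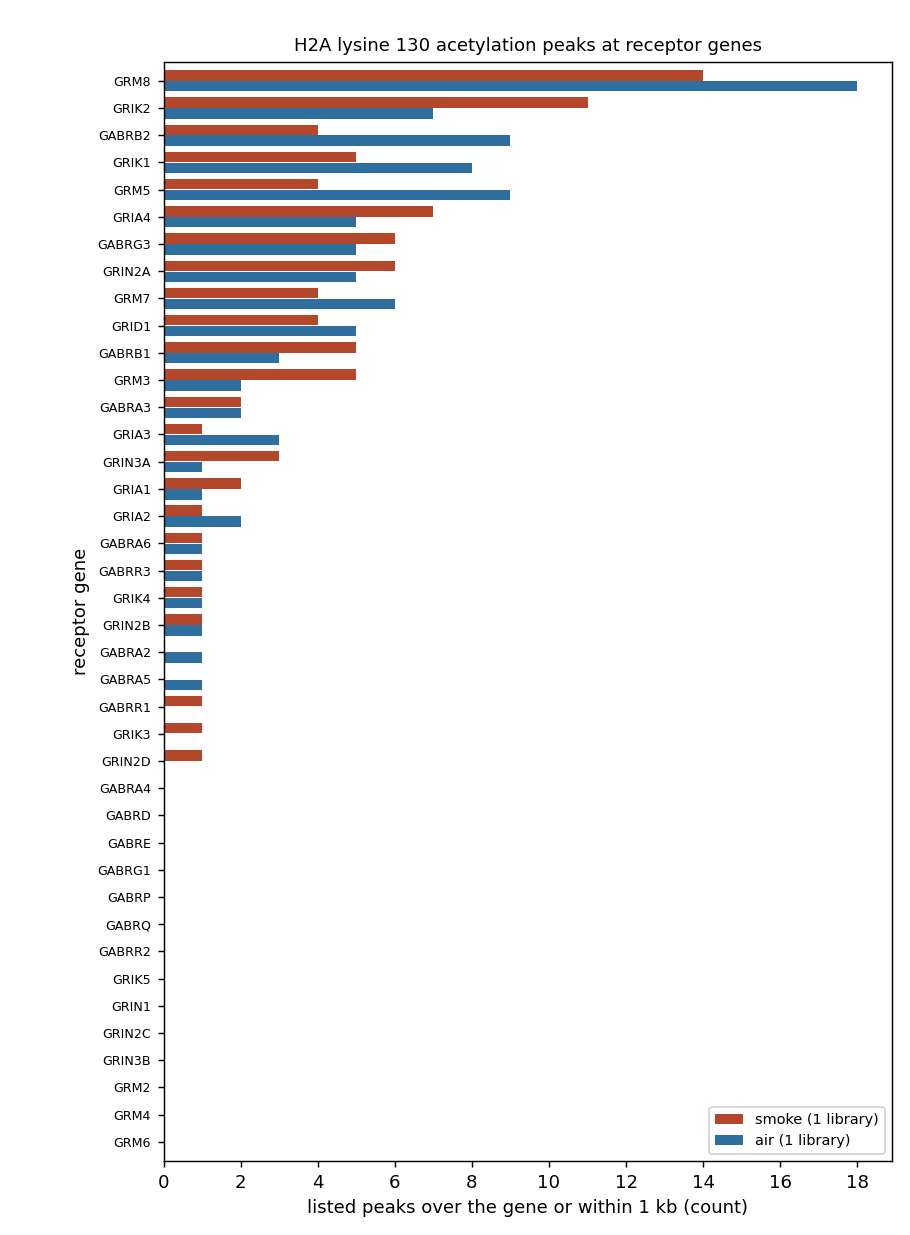
Listed peaks over each of 40 of the receptor genes or within 1 kb of it (horizontal axis, count), with 1 bar for the smoke library and 1 for the air library. GRM8 has the longest bars, 14 smoke and 18 air peaks, and the lowest 14 genes have no bar.

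All 7 receptor genes of 500 kb or more had peaks in both libraries, against 95.8% of the 307 other protein-coding genes of that length. A peak in either library stood at 99.7% of protein-coding genes of that length. Of the 18 between 100 and 500 kb, 16 had a peak in either library, against 86.0% of genes of that length. Of the 20 under 100 kb, 7 had one, 35.0% against 25.0%. By length class the shares with a peak in either library thus lay near those of other genes. Peaks in both libraries stood at 77.8% of the receptors of 100 to 500 kb, against 56.7% of other genes of that class. Under 100 kb these shares were 20.0% and 5.40%. Receptors in these classes were also longer, with medians of 295.9 against 161.5 kb and 40.8 against 17.4 kb. The classes therefore match gene length only in part.

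Density per Mb was also near that of other genes. Receptor genes held 8.47 smoke peaks per Mb (95% Poisson interval 6.91 to 10.3) and 9.62 air peaks per Mb (7.96 to 11.5). All protein-coding genes together held 8.08 (7.93 to 8.24) and 9.24 (9.07 to 9.41), inside the receptor intervals. In the 500 kb class the receptors held 7.77 smoke (5.67 to 10.4) and 9.84 air peaks per Mb (7.45 to 12.8), and the 307 other genes 9.87 and 11.3. In the middle class the receptors held 8.59 smoke and 9.32 air, and the other genes 8.38 and 9.64. Under 100 kb the receptors held 12.2 smoke (6.08 to 21.8) and 9.96 air (4.55 to 18.9), and the other genes 6.64 and 7.50. All intervals cover counting error of listed peaks only, and they treat neighbouring peaks as independent. No density difference between receptor genes and other genes of the same length class was detectable at these counts.

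**Figure D2:**
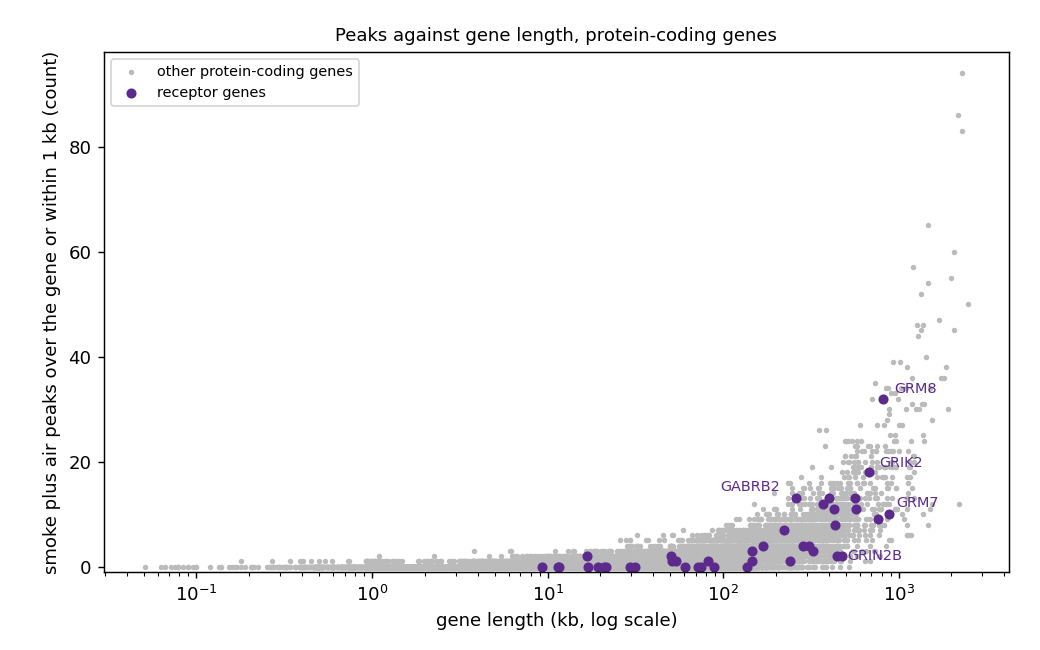
Smoke plus air peaks (vertical axis, count) against gene length (horizontal axis, kb on a log scale) for 19965 protein-coding genes, with 40 of the receptor genes as large points. GRM8 lies high among the long genes with 32 peaks, and GRIN2B lies low with 2.

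Smoke and air shared out the receptor peaks as they did the lists as a whole. Smoke peaks were 46.8% of the 220 receptor peaks (95% Wilson interval 40.3 to 53.4), against 47.02% of all listed peaks. More smoke than air peaks stood at 12 genes (26.7%, against 13.7% of all protein-coding genes) and more air than smoke peaks at 13 (28.9%, against 16.6%). Another 5 genes (11.1%) had equal counts above 0, a share not computed for all protein-coding genes. In 0 of the 30 genes with a peak did the interval of the smoke share leave out the whole-list share. Genes with few peaks could not have done so, so this says little of single genes. With 1 peak the interval ran from 0 to 79.3% or from 20.7 to 100%. Peak strength was also like that of the lists. The median deposited fold was 3.76 at receptor genes and 3.76 over the smoke list, and 3.87 against 3.93 in air. A q of 0.05 or lower was reached by 43.7% of the receptor peaks in smoke (34.5 to 53.3) and 60.7% in air (51.6 to 69.1), against 44.4% and 60.4% of the lists. The highest −log10 q over receptor genes was 3.22 in smoke and 3.10 in air, where the lists reached 65.8 and 8.23. Median width was 201 bp against 225 bp in smoke, and 294 bp against 277 bp in air.

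The AMPA receptor genes encode the channels of most fast excitatory signalling. All 4 are 100 to 500 kb long and had peaks in both libraries, as did 56.7% of other protein-coding genes of that class. GRIA4, encoding GluA4, held 7 smoke and 5 air peaks over 372 kb (chromosome 11, 105609994 to 105982090). Its smoke folds ran from 3.22 to 5.32 with a median of 3.76, and its air folds from 2.90 to 4.06 with a median of 3.13. The smoke peak at chr11:105842327-105842536 had a −log10 q of 2.97. Its density was 18.7 smoke (7.52 to 38.6) and 13.4 air peaks per Mb (4.34 to 31.2), against 9.05 and 9.72 on the chromosome. In its flanks, the 500 kb on either side, lay 18 smoke and 18 air peaks in 1 Mb. GRIA3 held 1 smoke and 3 air peaks, GRIA2 1 and 2, and GRIA1 2 and 1.

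Kainate receptor genes held 18 smoke and 16 air peaks, nearly all in GRIK2 and GRIK1. GRIK2, encoding GluK2, held 11 smoke and 7 air peaks over 676 kb (chromosome 6, 101393708 to 102070083), the most after GRM8. Its density was 16.2 smoke (8.09 to 29.0) and 10.3 air peaks per Mb (4.15 to 21.3), against 10.6 and 12.4 on the chromosome. In its flanks lay 11 smoke and 21 air peaks in 1 Mb. Its smoke peak at chr6:101736891-101737334 was the strongest smoke peak of the receptor genes (fold 5.91, −log10 q 3.22). An air peak at chr6:102054161-102054410 reached a fold of 5.80 (−log10 q 3.10). A stretch of 241 kb inside GRIK2 had no peak of either library. GRIK1, encoding GluK1, held 5 smoke and 8 air peaks over 403 kb (chromosome 21, 29536933 to 29939996), with smoke folds of 2.84 to 3.34 and air folds of 3.28 to 4.94. A q of 0.05 or lower was reached by 0 of its smoke and 5 of its air peaks. Its density was 12.3 smoke (4.01 to 28.8) and 19.8 air peaks per Mb (8.53 to 38.9), against 7.47 and 8.70 on the chromosome. In its flanks lay 15 smoke and 16 air peaks in 1 Mb. GRIK4 held 1 peak in each library over 477 kb, GRIK3 only the upstream smoke peak over 239 kb, and GRIK5 none over 71.9 kb.

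NMDA receptors need the GluN1 subunit, whose gene GRIN1 held no peak over 29.6 kb. GRIN2A, encoding GluN2A, held 6 smoke and 5 air peaks over 430 kb (chromosome 16, 9753404 to 10182908). Its smoke folds ran from 2.39 to 4.30 and its air folds from 2.61 to 4.17. That is 13.9 smoke (5.10 to 30.3) and 11.6 air peaks per Mb (3.76 to 27.0), where chromosome 16 held 4.87 and 5.93. In the flanks of GRIN2A lay 9 smoke and 10 air peaks in 1 Mb. GRIN2B, encoding GluN2B, is of nearly the same length, 445 kb, and held 1 peak in each library. Its density was 2.24 per Mb in each library (0.0567 to 12.5). Chromosome 12 held 10.7 smoke and 12.4 air peaks per Mb, and the interval holds both values. The 500 kb on either side of the gene held 4 smoke and 6 air peaks in all. GRIN2B was picked out for its low density. GRIN3A held 3 smoke and 1 air peak, GRIN2D 1 smoke peak, and GRIN2C and GRIN3B none.

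GRID1 encodes a delta receptor, which binds cerebellins at synapses. It held 4 smoke and 5 air peaks over 767 kb (chromosome 10, 85599552 to 86366795). That is 5.20 smoke (1.42 to 13.3) and 6.50 air peaks per Mb (2.11 to 15.2), against 8.09 and 8.65 on the chromosome. In its flanks lay 8 smoke and 12 air peaks in 1 Mb. By density over both libraries GRID1 ranked 68 from the lowest of 314 protein-coding genes of 500 kb or more. Its longest stretch without a peak was 270 kb.

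GRM5 encodes mGlu5, a metabotropic receptor that couples to phospholipase C. It held 4 smoke and 9 air peaks over 561 kb (chromosome 11, 88504642 to 89065982), and 3 of the 6 air peaks with a −log10 q of 3.10 lay in it. They stood at chr11:88699243-88699501, chr11:88771859-88772119 and chr11:88825230-88825546, with folds of 5.39, 5.80 and 5.80. GRM5 thus had 7.10 smoke (1.93 to 18.2) and 16.0 air peaks per Mb (7.31 to 30.3), against 9.05 and 9.72 on the chromosome. In the flanks of GRM5 lay 22 smoke and 16 air peaks in 1 Mb. A q of 0.05 or lower was reached by 2 of its smoke and 7 of its air peaks.

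Group II and III metabotropic receptors lower cyclic AMP. GRM8, encoding mGlu8, held the most peaks of any receptor gene, 14 in smoke and 18 in air over 814 kb (chromosome 7, 126438598 to 127252941). Its density was 17.1 smoke (9.38 to 28.8) and 22.0 air peaks per Mb (13.1 to 34.8). Chromosome 7 held 9.43 and 10.6, and the 500 kb on either side of the gene held 10 smoke and 12 air peaks in its 1 Mb. The gene ranked 33 of 19970 by number of peaks, and 18 of 314 by density among genes of 500 kb or more. A q of 0.05 or lower was reached by 9 smoke and 9 air peaks, with folds up to 5.37 and 5.61. The strongest were the smoke peak at chr7:126604506-126604705 (−log10 q 2.65) and the air peak at chr7:126474987-126475222 (−log10 q 3.10). The air interval of its density lies above the chromosome's value, and the smoke interval holds it. GRM8 was picked out as the gene with the most peaks, and the interval does not allow for that choice among 45 genes. Without GRM8 the receptor density was 7.84 smoke and 8.73 air peaks per Mb.

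GRM7, encoding mGlu7, is of similar length, 880 kb (chromosome 3, 6861115 to 7741533), and held 4 smoke and 6 air peaks. That is 4.53 smoke (1.24 to 11.6) and 6.80 air peaks per Mb (2.50 to 14.8), against 9.83 and 11.1 on its chromosome. In its flanks lay 6 smoke and 6 air peaks in 1 Mb. In smoke the intervals of GRM7 and GRM8 overlap, and in air they overlap as well. Its strongest smoke peak lay at chr3:6921385-6921568, at a fold of 5.37 (−log10 q 2.65). GRM3, a group II gene encoding mGlu3, held 5 smoke and 2 air peaks over 221 kb (chromosome 7, 86643909 to 86864879), with smoke folds of 3.76 to 4.30. Its density was 22.4 smoke (7.28 to 52.3) and 8.97 air peaks per Mb (1.09 to 32.4), while the 500 kb on either side held 20 smoke and 27 air peaks. GRM2, GRM4 and GRM6 had no peak.

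The only overlap of a smoke and an air peak over the receptor genes was in GRM8. The smoke peak at chr7:127123863-127124285 (fold 4.29) and the air peak at chr7:127124104-127124511 (fold 4.06) shared 182 bp, 119 kb from the nearest listed start. It was 1 of 103 smoke peaks, 0.971% (0.172 to 5.30), against 1.58% of the smoke list. Of all protein-coding genes, 0.616% held such an overlap. Within 1 kb, 6 smoke peaks had an air neighbour, among them in GABRB1, GRIA2, GRM3, GRM5 and GRM8. The gap was 10 bp in GRM3, 40 bp in GABRB1, 265 bp in GRM5 and 318 bp in GRIA2. The share within 1 kb was 5.83% (2.70 to 12.1) in smoke, against 4.43% of the list. So 25 genes had peaks in both libraries while 1 had them at the same place.

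**Figure D3:**
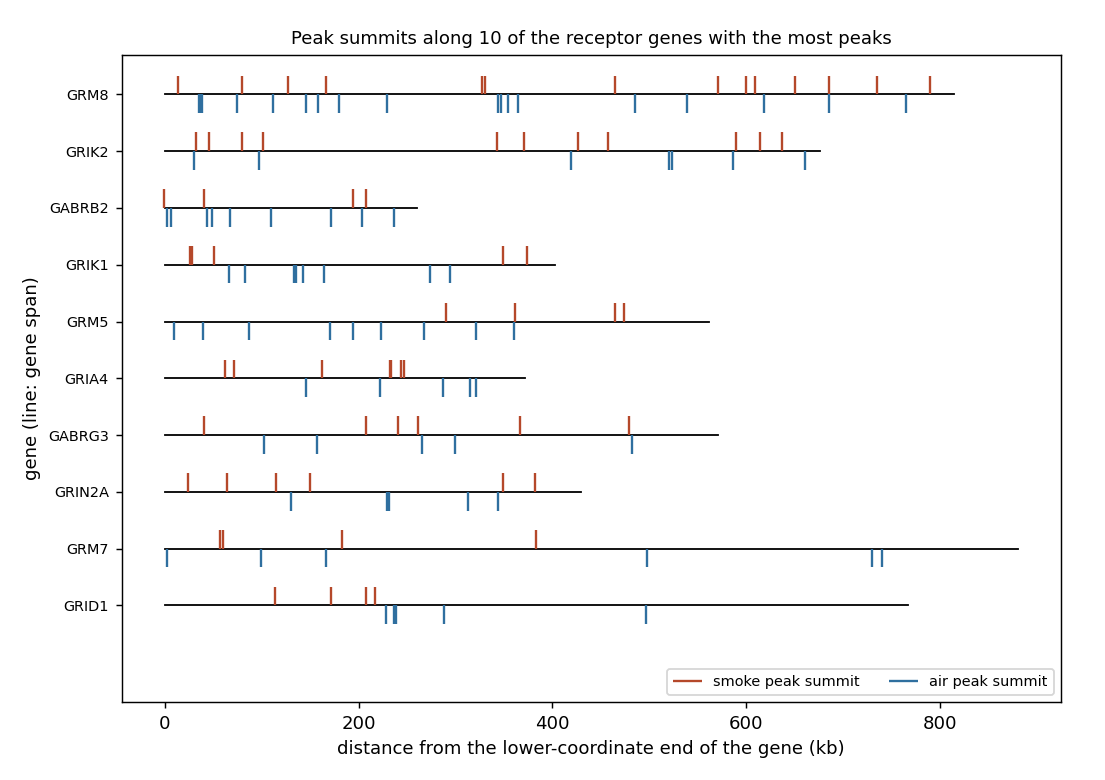
Peak summits along 10 of the receptor genes with the most peaks (horizontal axis, kb from the gene's lower-coordinate end; black line, gene span), with smoke summits above the line and air summits below. Summits are spread along the genes, and the overlapping pair of GRM8 stands near 685 kb. The open stretch of 241 kb in GRIK2 holds no summit.

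The GABA-A genes held 27 smoke and 29 air peaks over 19 genes. At least 1 peak stood at 11 of them (57.9%, against 35.5% of all protein-coding genes), with a median length of 74.7 kb against 24.2 kb. GABRB2, encoding beta2, held 4 smoke and 9 air peaks over 260 kb (chromosome 5, 161288436 to 161548404), the highest density over both libraries among receptor genes of 100 kb or more. That is 15.3 smoke (4.16 to 39.1) and 34.4 air peaks per Mb (15.7 to 65.2), against 10.0 and 11.3 on the chromosome. In its flanks lay 13 smoke and 20 air peaks in 1 Mb. GABRB2 was picked out for its high density, and the intervals do not allow for that choice. Its smoke peak at chr5:161495917-161496246 reached a fold of 4.88 (−log10 q 2.65), and another smoke peak (chr5:161287961-161288144, fold 3.76) lay 292 bp outside its lower end. GABRA6 held 1 peak in each library.

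Several of these genes stand in clusters. On chromosome 4, from GABRG1 to GABRB1, 14 smoke and 9 air peaks lay in 1.39 Mb, 10.07 and 6.47 per Mb, against 7.04 and 7.74 on the chromosome. GABRB1 held 5 smoke and 3 air peaks, GABRA2 1 air peak, and GABRA4 and GABRG1 none. Thus 9 smoke and 5 air peaks of that cluster lay outside the spans of its receptor genes. On chromosome 15, GABRG3, encoding gamma3, held 6 smoke and 5 air peaks over 571 kb (26971181 to 27541984), with folds of 2.87 to 4.30 and 3.13 to 4.69. It had 10.5 smoke (3.84 to 22.8) and 8.73 air peaks per Mb (2.83 to 20.4), against 4.92 and 5.61 on the chromosome. In its flanks lay 4 smoke and 9 air peaks in 1 Mb. Near GABRG3, the gene GABRA5 held 1 peak, in air. On chromosome X, from GABRE to GABRQ, 5 smoke and 10 air peaks lay in 0.706 Mb, 7.08 (2.30 to 16.5) and 14.2 per Mb (6.79 to 26.1), against 3.96 and 4.22 on the chromosome. The air interval lies above the chromosome's value, but it does not allow for several clusters having been looked at. GABRA3 held 2 peaks of each library, and 3 of the smoke and 8 of the air peaks lay outside the spans of the cluster's receptor genes. Whether peaks between receptor genes lay over other genes was not examined.

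Of the 7 genes of rarer subunits, all under 100 kb, 5 had no peak, near the 75.0% of other protein-coding genes of that length. GABRD, GABRE, GABRP and GABRQ, for delta, epsilon, pi and theta, had none in 0.0934 Mb together. Of the rho subunit genes, GABRR1 held 1 smoke peak, GABRR3 1 of each and GABRR2 none. The genes without a peak were short, with a median of 29.6 kb. GRM4 was longer, at 137 kb. A count of 0 there allows up to 21.6 peaks per Mb in each library, so a lower density was not detectable.

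Within 1 kb of an end, 4 of 45 genes (8.89%) had a peak, against 5.11% of all protein-coding genes. In smoke it was all 4 (95% Wilson interval 3.51 to 20.7, against 2.25%), and in air 1 (2.22%, against 3.00%). The smoke interval at 1 kb lies above the share of all genes, but rests on 4 genes and on the distance chosen. Within 500 bp, 1 gene had a smoke peak (0.393 to 11.6, against 1.29%), and within 3 kb 6 genes had one (6.26 to 26.2, against 6.47%). Both of these smoke intervals hold the share of all genes. In air, 8 genes had a peak within 3 kb (17.8%, 9.29 to 31.3, against 7.51%), and that interval lies above the share of all genes. With either library counted, 1 gene had a peak within 500 bp (2.22%, against 2.91%) and 11 within 3 kb (24.4%, 14.2 to 38.7, against 13.2%). The 3 kb interval for either library also lies above the share of all genes. None of these intervals allows for several distances having been looked at. The smoke peaks outside GRIK3 and GABRB2 given above are among those within 1 kb. Along the 19 genes with a listed strand and a smoke peak, 32.5% of 77 smoke peaks lay in the first 25% of the gene from its 5′ end (23.1 to 43.5). In air the share was 17.9% of 78 peaks in 18 genes (upper bound 27.9), and the intervals overlap. The last 25% held 19.5% of smoke (12.2 to 29.7) and 37.2% of air peaks (27.3 to 48.3), and these intervals also overlap. Overlap of intervals does not show that the shares are equal. The air interval of the last 25% lies above the 25% of an even spread. Such shares were not computed over all protein-coding genes, so they are not a result about the receptor genes. Of the 220 peaks, 11 also lay over another annotated gene. Each of these lay over a long noncoding RNA gene, such as GRM8-AS1, and 1 of them over the protein-coding gene PPP3R2 inside GRIN3A as well.

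Peak numbers of the receptor genes went together in the libraries. Over the 45 genes smoke and air counts had a Pearson r of 0.84 and a Spearman rho of 0.87, which describe these 2 libraries only. Gene length is common to both counts and had a rho of 0.78 with the sum of the counts. Per Mb, over the 25 genes of 100 kb or more, the rho between libraries was 0.68 and the r 0.55. The lists bear one control label in common, and its part in this was not tested. Of these 25 genes, 11 were denser than their chromosome in smoke and 11 in air. Against the 500 kb on either side, 11 were denser in smoke and 10 in air. Such counts were not made over all protein-coding genes of that length, so they are not a result about the receptor genes.

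Genes that work with these receptors were set beside them. Of 61 synapse partner genes (scaffolds, auxiliary subunits, enzymes and transporters), 25 had a smoke peak (41.0%, against 24.2% of all protein-coding genes) and 26 an air peak (42.6%, against 25.9%). Their median length was 66.2 kb, against 24.2 kb over all. Among the 36 partners under 100 kb the shares were 11.1% and 19.4%, and among other protein-coding genes of that length 14.5% and 16.0%. The median count of the partners was 0 in each library, as over all protein-coding genes, and that of the receptors 1. The partners' density was 10.07 smoke (8.43 to 11.9) and 10.2 air peaks per Mb (8.57 to 12.1). The scaffold gene DLG2 held 42 smoke and 44 air peaks over 2173 kb, DLGAP1 14 and 11, and NLGN1, a postsynaptic adhesion gene, 14 and 11. Of 35 genes of other fast receptors, including the nicotinic and glycine receptors, with the GABA-B genes, 8 had a smoke peak (22.9%) and 7 an air peak (20.0%), near the 24.2% and 25.9% of all protein-coding genes. GABBR2 held 3 of each, GLRA3 1 smoke and 4 air, and GLRA1 3 and 1. Among nicotinic receptor genes, CHRNA7 held 1 of each, CHRNA5 1 smoke peak and the other 14 none. Those 14 are all under 100 kb, a length at which 75.0% of other protein-coding genes had no peak. The nicotinic genes were picked out once their values were known.

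Genes that bladder epithelium or nearly every cell uses were not more densely covered than the receptors. The 33 urothelial genes held 7.02 smoke (3.51 to 12.6) and 5.75 air peaks per Mb (2.63 to 10.9). A peak of either library stood at 9 of them (27.3%, against 35.5% of all protein-coding genes). TP63, a transcription factor of basal cells, held 5 smoke and 3 air peaks, PPARG 1 and 2, and CDH1 1 of each. The 33 housekeeping genes held 2.85 smoke (0.345 to 10.3) and 5.70 air peaks per Mb (1.55 to 14.6). A peak of either library stood at 5 of them (15.2%, against 35.5%), and 28 had none. TFRC held 2 smoke peaks, and B2M and PSMB2 1 air peak each. The 12 neuron markers held 3.97 smoke (1.46 to 8.64) and 7.28 air (3.63 to 13.0). A peak of either library stood at 6 of them (50%, against 35.5%), and 6 had none. The most were held by MAP2 with 2 and 3, RBFOX3 with 1 and 3, and ELAVL4 with 2 and 1. Those named are 310, 576 and 156 kb long, against a median of 71.8 kb for the neuron markers. Shares of genes with a peak were not matched for gene length in these lists. The intervals of all these lists overlap those of the receptors. Peak lists cannot show which of these genes the cells express, so the labelled cell type was not checked by them.

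**Figure D4:**
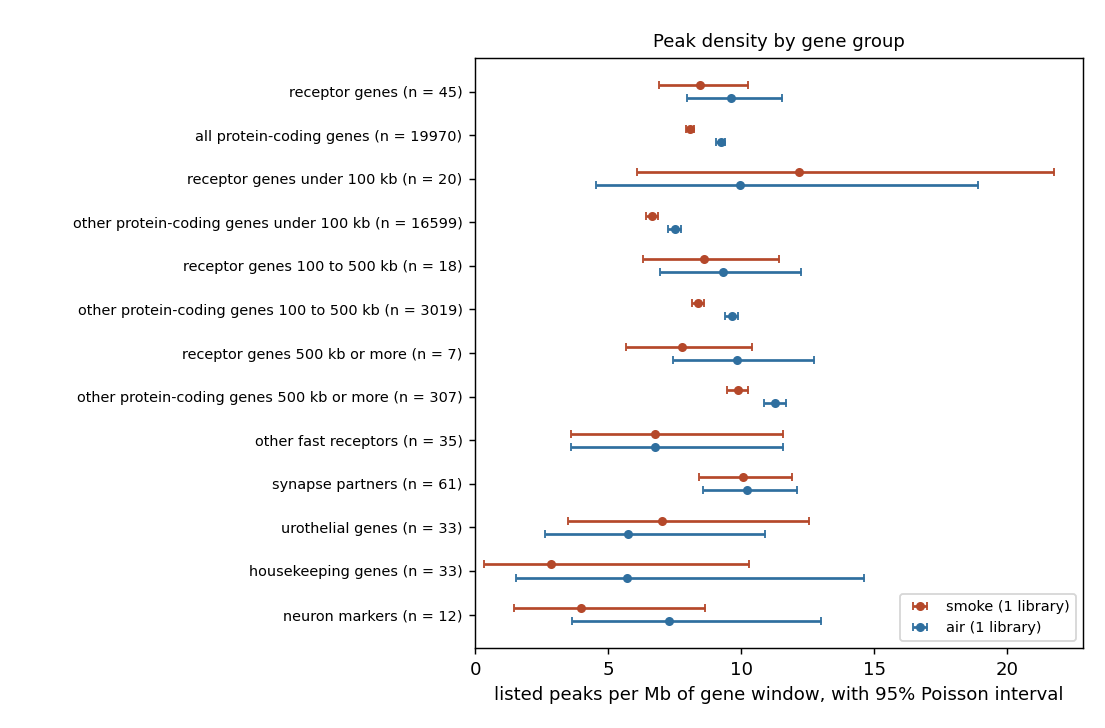
Listed peaks per Mb of gene window (horizontal axis) by gene group, with 95% Poisson intervals as bars and 1 point for each library. The receptor genes sit at 8.47 smoke and 9.62 air peaks per Mb, beside 8.08 and 9.24 for all protein-coding genes. Their intervals overlap those of every other group but the other protein-coding genes under 100 kb. That group lies lower, at 6.64 smoke (6.41 to 6.89) and 7.50 air (7.25 to 7.76), and the receptor genes under 100 kb overlap it.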

How the data were processed

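Peaks were deposited by the authors as 1 list per immunoprecipitated library, in the 10-column narrowPeak layout. The tools listed are Bowtie2 with MACS and MACS2, and the builds hg38 and mm10, per the submitters' processing notes. Their versions and settings, and which build served which step, were not stated. The authors' deposited score is 10 times the −log10 p, cut to a whole number. Their deposited fold, −log10 p and −log10 q describe each peak within its list only. Positions and summits are other deposited values; starts were moved to 1-based.

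Gene spans came from the RefSeq table of GRCh38.p14 (chromosomes 1 to 22 and X; 19970 protein-coding genes). Strands and starts came from the RefSeq promoter table. A chromosome's density runs to the end of its last annotated gene. Counts carry exact Poisson and shares Wilson 95% intervals, for counting error only. Counting was tested on simulated data. Python 3.11.15, pandas 2.3.3 and scipy 1.17.1 were used.

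Described in full were the 12 genes with the most peaks and the 5 densest over 100 kb; named peaks were the 5 of highest −log10 q per library, overlaps, and those at gene ends. From other lists the 3 genes with the most peaks were named. Members and lists were chosen with earlier results of these data known. A few genes enter the totals and are not reported here by name. Alternatives covered the margin, peak placement, thresholds, list size and members.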

Additional observations from a re-analysis of the deposited data

How the results depend on the processing

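Of 112 alternative values, 85 stayed within 1.5 times a count or inside the 95% interval of a density or share, and 27 did not. Margins of 0 and 5 kb, placing peaks by summit, equal list sizes, leaving out chromosome X or 1 single gene, and a looser reading of the symbols moved no value past these limits, nor did leaving out GRM8 or 1 cluster of GABA-A genes, which were chosen after seeing the data. Stricter thresholds leave fewer peaks by construction, and the smoke share fell over the whole lists as well. The lists kept 10637 smoke and 16307 air peaks at a q of 0.05 or lower, and 1373 and 2677 at a fold of at least 5. Shares of all protein-coding genes with a peak at these thresholds were not computed. The gene counts below are therefore not a result about the receptor genes. At a q of 0.05 or lower, 45 smoke and 71 air peaks remained (3.70 and 5.84 per Mb, smoke share 38.8%), where other protein-coding genes had 3.63 and 5.61 per Mb. At a −log10 q of at least 2, 12 genes had a smoke and 17 an air peak, 7 both and 23 neither, from 14 smoke and 31 air peaks (1.15 and 2.55 per Mb, smoke share 31.1%), beside 1.42 and 2.31 per Mb elsewhere. At a fold of at least 5, 4 genes had a smoke and 6 an air peak, 2 both and 37 neither, from 4 smoke and 11 air peaks (0.329 and 0.904 per Mb, smoke share 26.7%), beside 0.479 and 0.882 elsewhere. Overlapping smoke peaks numbered 6 within 1 kb and 0 at 50% of the smoke peak. Gene-end peaks stood at 1 gene within 500 bp and 11 within 3 kb. Read depth is unknown. No leave-one-out fit exists with 1 library per group. No paired analysis was possible because each group has 1 library and no test was run.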
